A study of Mus musculus with 4 samples.

Results

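Semaphorins, their plexin and neuropilin receptors, ephrins and Eph receptors were examined in primary mouse embryonic fibroblasts. All symbols of these families in the deposited expression tables were taken by name (Sema with a digit, Plxn, Nrp1 and Nrp2, Epha, Ephb, Efna and Efnb), which gave 53 genes of 23235 listed symbols. They comprised 7 class 3 semaphorins, 13 semaphorins of classes 4 to 7, 2 neuropilins, 9 plexins, 5 ephrin-A and 3 ephrin-B ligands, 9 EphA and 5 EphB receptors.

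There were 4 libraries of poly(A)-selected RNA, 1 per genotype, all from the C57BL/6 strain. The genotypes were given as Wild-type, Gadd45-/-, G3 Terc-/- and G3 Gadd45-/-Terc-/- (dKO), and the design text names the gene as Gadd45a. Terc encodes the RNA template of telomerase, G3 marks the generation of breeding without it, and Gadd45a encodes a small nuclear protein that is induced by DNA damage. The cells were grown out of whole minced embryos, and the labels do not say how many embryos went into a culture, their age or sex, or how long the cells were grown.

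Semaphorins are secreted or membrane-bound ligands that bind plexins, whose cytoplasmic part acts on Ras-family GTPases and reshapes the cytoskeleton. Most class 3 semaphorins are secreted and need a neuropilin as co-receptor. Ephrins and Eph receptor tyrosine kinases are both held at the cell surface and signal in both directions where cells touch. The families were found as guides of growing axons, and they also act on the adhesion and migration of mesenchymal cells.

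Values are FPKM, fragment numbers divided by transcript length and library depth, as the authors deposited them, so that levels of different genes are per length and can be set side by side. Differences are on the log2(FPKM + 1) scale, and a gene is called higher or lower when its difference was 1 or more in size, a 2-fold difference of FPKM + 1. With no second library of any genotype there is no error and no test. Every difference is between single cultures, and fewer cells of a type cannot be told apart from less RNA per cell. The estimated depth was 19200000 to 19900000 fragments per library. The labels were not borne out by the Gadd45a transcript, whose FPKM was 22.9 for wild type, 33.9 for Gadd45-/-, 31.4 for G3 Terc-/- and 45.1 for dKO, so libraries carrying that deletion are named by their labels. Terc was listed at 0 in both G3 libraries and at 0.53 and 0.26 FPKM in the others. All of these values are near the floor, so they do not decide whether the Terc labels hold. The library labelled Gadd45-/- also differed in sex, with the Y-linked Ddx3y at 16.4 FPKM against 0.0228 or less elsewhere and Xist at 0.154 FPKM against 24.0 or more, so sex and genotype cannot be told apart in its comparisons. Of the 53 genes 3 are X-linked, namely Efnb1, Plxna3 and Plxnb3.

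Fibroblasts in all 4 libraries expressed a broad part of these families. At 1 FPKM or more stood 35 genes in every library and 41 in at least 1 library, while 12 stayed below 1 FPKM throughout and 2 of these, Epha6 and Epha10, were listed at 0 in all libraries. The receptors Plxnb2 and Plxna1 were the most abundant over the 4 libraries. Plxnb2, a receptor of class 4 semaphorins, ranged from 83.6 FPKM (wild type) through 90.9 (labelled Gadd45-/-) and 95.8 (G3 Terc-/-) to 96.1 (labelled dKO). Plxna1, which transmits class 3 signals with neuropilins, gave 57.0, 59.5, 67.4 and 61.6 FPKM for these libraries, the order kept below. Neither differed by more than 0.24 between any pair of libraries compared. The summed FPKM of all 53 genes was 471 in wild type, 500 in the library labelled Gadd45-/-, 645 in G3 Terc-/- and 528 in the library labelled dKO.

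**Figure D1:**
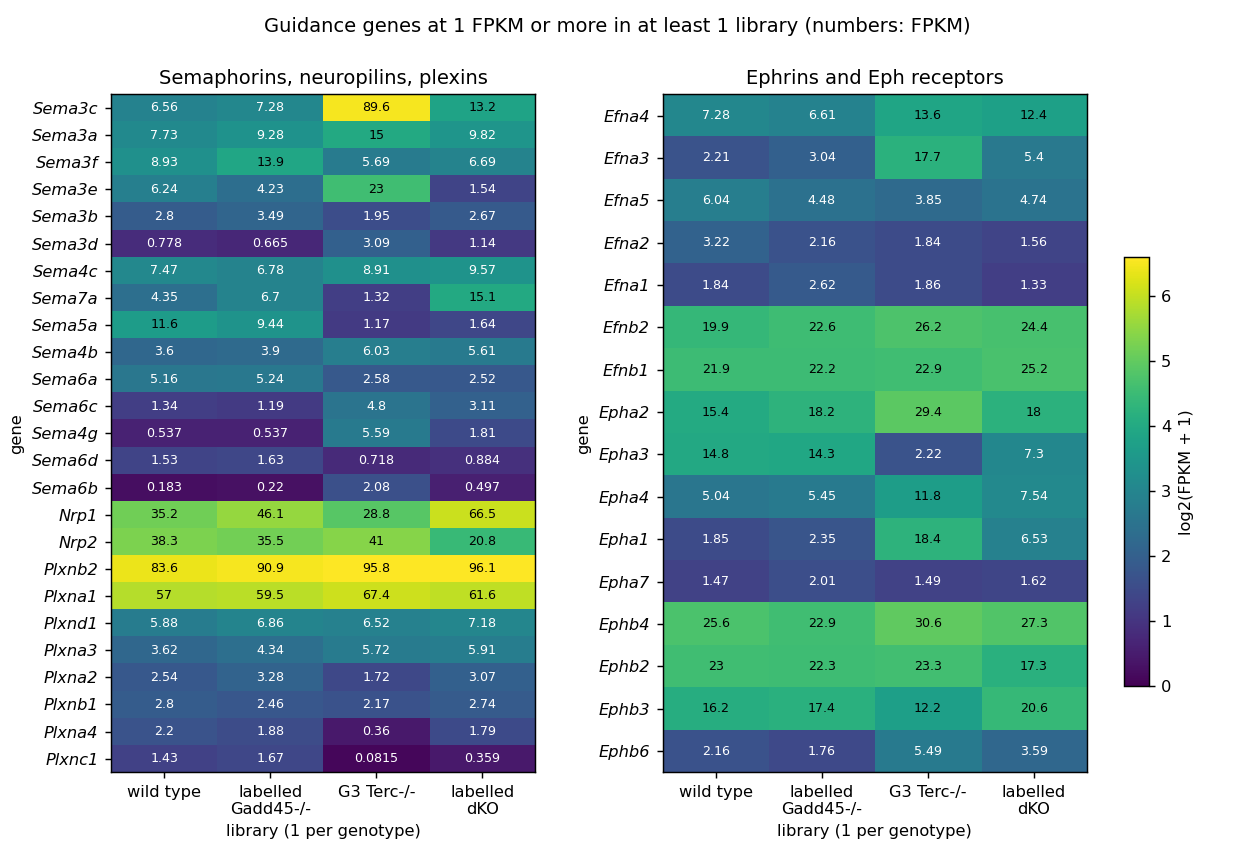
Heat map of log2(FPKM + 1) for the 41 guidance genes at 1 FPKM or more in at least 1 library, with 1 row per gene, 1 column per library and the FPKM printed in each cell. Sema3c (89.6 FPKM), Efna3 (17.7 FPKM) and Epha1 (18.4 FPKM) are bright in the G3 Terc-/- column, while Plxnb2 and Plxna1 are bright in every column.

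What the label Gadd45-/- went with in cells that kept Terc was asked first. None of the 53 genes was higher or lower by the size rule, against 0.178% of all 22497 symbols compared that were higher and 0.138% that were lower. The largest differences belonged to the class 3 semaphorin Sema3f, a ligand that prefers Nrp2, at 8.93 FPKM in wild type and 13.9 in the library labelled Gadd45-/- (0.59), and to Sema7a, a semaphorin held in the membrane by a lipid anchor, at 4.35 and 6.70 FPKM (0.52). In the opposite direction stood Sema3e, the ligand of Plxnd1, at 6.24 and 4.23 FPKM (-0.47), and the ephrin Efna2 at 3.22 and 2.16 FPKM (-0.42). Of the 39 genes with a mean of 1 FPKM or more over the libraries, 37 lay within 0.5 of no difference, and their median difference was 0.061 beside -0.027 for all 11589 symbols at that level, of which 0.319% were higher and 0.198% lower. The share of all symbols within 0.5 was not computed here either. The Gadd45a transcript was not lower in the library labelled Gadd45-/-, so the direction belongs to its label.

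G3 Terc-/- cells were then set against wild type. Of the 53 genes 10 were higher, which is 18.9% beside 5.7% of all symbols, and 5 were lower, which is 9.43% beside 3.33%. Low genes rarely reach the size rule, so the 39 genes with a mean of 1 FPKM or more are the closer comparison. Among these 9 were higher (23.1% beside 9.93% of symbols at that level) and 4 lower (10.3% beside 6.25%), with a median difference of 0.13 beside 0.0060. By role, 7 of 28 ligands were higher and 2 lower, and 3 of 25 receptors were higher and 3 lower.

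Among class 3 semaphorins, 3 of 7 were higher in G3 Terc-/- cells and none lower, beside 5.7% and 3.33% of all symbols. Sema3c, which directs migrating neural crest cells in the forming heart outflow tract, was at 6.56 FPKM (wild type), 7.28 (labelled Gadd45-/-), 89.6 (G3 Terc-/-) and 13.2 (labelled dKO). Its difference of 3.58 between G3 Terc-/- and wild type, 13.6-fold in FPKM, was the largest of the 53 genes on the log2(FPKM + 1) scale. As ratios of FPKM alone, Plxnc1 (17.5-fold lower) and Plxnb3 (15.2-fold lower) differed more, both at low levels. For Sema3c the G3 Terc-/- library alone was high, and the value stands for about 9192 fragments there against 667 in wild type. Sema3e gave 6.24, 4.23, 23.0 and 1.54 FPKM in that order (1.73 for G3 Terc-/- against wild type). Sema3d, another secreted ligand of the class, stood at 0.778, 0.665, 3.09 and 1.14 FPKM (1.20, and 0.98 with quantile normalization, short of the rule). Each of the 3 had its highest value in G3 Terc-/-. Sema3a, the classical growth cone collapsing factor, also had its highest value there but missed the size rule, at 7.73, 9.28, 15.0 and 9.82 FPKM (0.88).

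The remaining class 3 members were not called in this comparison. Sema3f stood at 8.93, 13.9, 5.69 and 6.69 FPKM and Sema3b at 2.80, 3.49, 1.95 and 2.67 FPKM, both with their lowest value in G3 Terc-/-, while Sema3g stayed at 0.115 FPKM or less. The summed FPKM of the class was 33.1 in wild type, 39.0 in the library labelled Gadd45-/-, 138 in G3 Terc-/- and 35.2 in the library labelled dKO. Sema3c made up 19.8% of it in wild type, 18.7% in the library labelled Gadd45-/-, 64.7% in G3 Terc-/- and 37.7% in the library labelled dKO. In wild type the class was instead shared between Sema3f (27.0%), Sema3a (23.3%), Sema3c and Sema3e (18.8%).

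**Figure D2:**
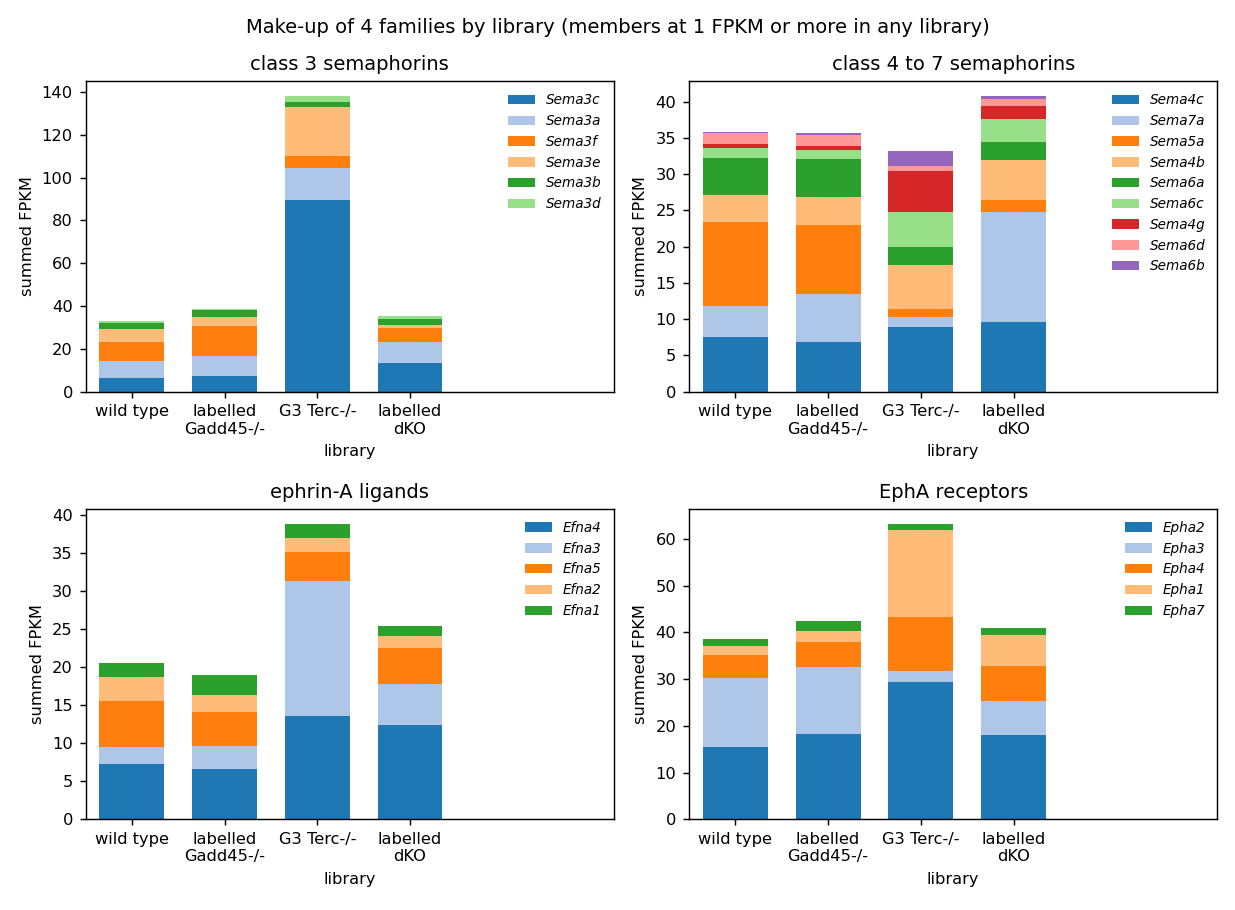
Stacked bars of the summed FPKM (y axis, linear from 0) of 4 families in each of the 4 libraries, 1 colour per gene, for members at 1 FPKM or more in any library. Sema3c fills most of the class 3 bar in G3 Terc-/-, Sema5a shrinks and Sema7a widens between libraries among the other semaphorins, and Efna3 and Epha1 widen in G3 Terc-/-.

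The genes Sema3d, Sema3a, Sema3e and Sema3c lie in this order on 1 stretch of chromosome 5 in the assembly GRCm38.p6, which differs from the build named for the files and is used here for gene order and sequence only. The stretch holds 22 protein-coding genes, of which 12 are in the tables and 6 had a mean of 1 FPKM or more. The other two of these were Cacna2d1, a calcium channel subunit, at 4.53, 5.26, 5.38 and 9.70 FPKM in the library order used above, and Hgf, the ligand of the Met receptor, at 1.71, 3.02, 11.8 and 12.6 FPKM. Hgf was thus also higher in G3 Terc-/- than in wild type (2.24), but unlike the semaphorins it was as high in the library labelled dKO.

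The sequences around the start sites of the 3 class 3 genes called in G3 Terc-/- are shown with those of Epha1, the Eph receptor with the largest difference, and of Sema7a, which went the opposite way, because these genes carry the comparisons. They come from RefSeq on GRCm38.p6, whose table of start sites holds 47 of the 53 genes, and run from 250 bases before to 50 bases after the start, 5′ to 3′ on the gene's strand. The windows are Sema3c at chr5:17574566-17574865 (+), Sema3d at chr5:12382916-12383215 (+), Sema3e at chr5:14025026-14025325 (+), Epha1 at chr6:42373219-42373518 (-) and Sema7a at chr9:57939862-57940161 (+). Capitals mark matches, on either strand, to a search for the GC box GGGCGG, the CCAAT box, the core of the hypoxia response element (ACGTG), the TATA box (TATAAA), the AP-1 site (TGANTCA), the interferon-stimulated response element and the NF-kB site.
Sema3c: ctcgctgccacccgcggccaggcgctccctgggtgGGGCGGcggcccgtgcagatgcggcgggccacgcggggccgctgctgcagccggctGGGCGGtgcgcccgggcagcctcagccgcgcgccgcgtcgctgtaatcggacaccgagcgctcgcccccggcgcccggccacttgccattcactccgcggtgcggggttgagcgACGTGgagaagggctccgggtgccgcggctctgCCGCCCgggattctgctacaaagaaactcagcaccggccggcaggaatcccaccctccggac
Sema3d: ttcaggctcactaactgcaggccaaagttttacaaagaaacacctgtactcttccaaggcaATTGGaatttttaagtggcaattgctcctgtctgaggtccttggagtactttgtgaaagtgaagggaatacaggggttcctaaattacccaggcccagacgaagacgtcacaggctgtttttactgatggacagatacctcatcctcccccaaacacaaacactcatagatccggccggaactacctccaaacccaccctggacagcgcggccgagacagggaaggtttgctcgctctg
Sema3e: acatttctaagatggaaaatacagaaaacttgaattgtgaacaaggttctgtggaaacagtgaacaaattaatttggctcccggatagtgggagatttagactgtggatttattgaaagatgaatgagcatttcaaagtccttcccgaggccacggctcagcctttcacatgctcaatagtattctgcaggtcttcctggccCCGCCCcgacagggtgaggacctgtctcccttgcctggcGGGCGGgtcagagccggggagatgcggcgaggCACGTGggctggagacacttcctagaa
Epha1: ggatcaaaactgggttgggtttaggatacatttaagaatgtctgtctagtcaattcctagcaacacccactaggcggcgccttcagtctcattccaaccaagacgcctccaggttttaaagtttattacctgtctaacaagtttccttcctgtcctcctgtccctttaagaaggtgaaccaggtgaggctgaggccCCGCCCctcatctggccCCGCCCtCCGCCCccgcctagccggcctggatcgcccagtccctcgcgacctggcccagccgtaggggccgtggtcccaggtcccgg
Sema7a: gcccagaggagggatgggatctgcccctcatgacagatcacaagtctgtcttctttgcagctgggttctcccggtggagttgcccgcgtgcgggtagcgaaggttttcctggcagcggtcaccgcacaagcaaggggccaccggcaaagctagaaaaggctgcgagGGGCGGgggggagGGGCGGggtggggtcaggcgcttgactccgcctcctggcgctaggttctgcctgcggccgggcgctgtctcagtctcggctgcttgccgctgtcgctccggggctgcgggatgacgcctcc

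GGGCGG was found in Sema3c, Sema3e, Epha1 and Sema7a and in 35.7% of all 32851 windows of this length. ACGTG was found in Sema3c and Sema3e and in 19.6% of windows, and in Sema3e it is read on both strands of the same CACGTG. The CCAAT box was found in Sema3d alone of the 5 and in 37.4% of windows. TATAAA (13.6% of windows), TGANTCA (7.81%), the interferon-stimulated response element (3.44%) and the NF-kB site (0.411%) were not in these 5 windows, which says only that the letters are absent there. The windows differed in base composition, with 75.7% G or C and 42 CpG in Sema3c, 67.3% and 23 in Sema7a, 58% and 14 in Epha1, 50.7% and 11 in Sema3e and 49.7% and 8 in Sema3d, beside medians of 52.7% and 7 over all windows. No motif searched was in all 3 of the class 3 windows.

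Semaphorins of classes 4 to 7 differed in both directions between G3 Terc-/- and wild type. Of 13 genes 3 were higher and 2 lower, beside 5.7% and 3.33% of all symbols. The transmembrane ligand Sema4g was at 0.537 FPKM (wild type), 0.537 (labelled Gadd45-/-), 5.59 (G3 Terc-/-) and 1.81 (labelled dKO), a difference of 2.1 between G3 Terc-/- and wild type. Of the class 6 members, which are transmembrane ligands of A-type plexins, Sema6b stood at 0.183, 0.220, 2.08 and 0.497 FPKM (1.38) and Sema6c at 1.34, 1.19, 4.80 and 3.11 FPKM (1.31). Sema6a and Sema6d of the same class had lower values in G3 Terc-/- that missed the rule, at 5.16 and 2.58 FPKM (-0.78) and at 1.53 and 0.718 FPKM (-0.56). Members of class 6 thus differed in both directions.

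Sema5a, a transmembrane semaphorin with thrombospondin repeats, was the most abundant of classes 4 to 7 in wild type. On the log2(FPKM + 1) scale it was lower in G3 Terc-/- by more than any other of the 53 genes. Its values were 11.6 FPKM (wild type), 9.44 (labelled Gadd45-/-), 1.17 (G3 Terc-/-) and 1.64 (labelled dKO) (-2.54 for G3 Terc-/- against wild type). Both G3 libraries were low and both others high. Sema7a stood at 4.35, 6.70, 1.32 and 15.1 FPKM (-1.21), low in G3 Terc-/- and highest in the library labelled dKO. Sema4b and Sema4c, class 4 members, differed less, at 3.60, 3.90, 6.03 and 5.61 FPKM and at 7.47, 6.78, 8.91 and 9.57 FPKM, and Sema4a, Sema4d, Sema4f and Sema5b stayed below 1 FPKM in all libraries.

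Most of the plexins and neuropilins, receptors of these ligands, lay close to their wild-type levels in G3 Terc-/-. Of the 9 with a mean of 1 FPKM or more 7 lay within 0.5 of no difference, beside 16 of the 39 guidance genes at that level, which include these 9. The share of all symbols within 0.5 was not computed. None of these receptors was higher by the size rule, beside 5.7% of all symbols. The low-abundance receptors Plxna4 and Plxnc1 were lower, which is 2 of 11 (18.2%) beside 3.33% of all symbols. At a mean of 1 FPKM or more it was 1 of 9 (11.1%) beside 6.25%. Plxna4, a receptor for Sema3a and class 6 semaphorins, was at 2.2 FPKM (wild type), 1.88 (labelled Gadd45-/-), 0.360 (G3 Terc-/-) and 1.79 (labelled dKO) (-1.23). Plxnc1, the plexin that binds Sema7a, stood at 1.43, 1.67, 0.0815 and 0.359 FPKM (-1.17), which stands for about 195 fragments in wild type and 11.2 in G3 Terc-/-. Plxnc1 was low in both G3 libraries and Plxna4 in G3 Terc-/- only.

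Receptors of the class 3 ligands that were high in G3 Terc-/- did not share their difference. Plxnd1, the receptor of Sema3e, stood at 5.88, 6.86, 6.52 and 7.18 FPKM in the library order used above, so the ratio of Sema3e to Plxnd1 was 1.06, 0.617, 3.53 and 0.215. Nrp1 stood at 35.2, 46.1, 28.8 and 66.5 FPKM and Nrp2 at 38.3, 35.5, 41.0 and 20.8 FPKM. Of the other plexins Plxna2, Plxna3 and Plxnb1 stayed between 1.72 and 5.91 FPKM, and Plxnb3 stood at 0.132 FPKM or less, which in the G3 libraries is about 1 fragment.

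Of the ephrin-A ligands, which are tied to the membrane by a lipid anchor, 1 of 5 was higher in G3 Terc-/-, beside 5.7% of all symbols. Efna3 was at 2.21 FPKM (wild type), 3.04 (labelled Gadd45-/-), 17.7 (G3 Terc-/-) and 5.40 (labelled dKO), an 8.01-fold difference of FPKM between G3 Terc-/- and wild type (2.54). It lies between Efna1 and Efna4 on chromosome 3 of GRCm38.p6, with no other protein-coding gene between them. Efna4 stood at 7.28, 6.61, 13.6 and 12.4 FPKM (0.82) and Efna1 at 1.84, 2.62, 1.86 and 1.33 FPKM (0.01). The neighbours thus differed by unlike amounts. Efna2 (3.22 and 1.84 FPKM in wild type and G3 Terc-/-) and Efna5 (6.04 and 3.85 FPKM) were not called.

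Ephrin-B ligands and EphB receptors, whose pair Efnb2 and Ephb4 separates arteries from veins in the embryo, mostly stayed close to their wild-type levels. The transmembrane ligand Efnb1 stood at 21.9, 22.2, 22.9 and 25.2 FPKM and Efnb2 at 19.9, 22.6, 26.2 and 24.4 FPKM, and Efnb3 stayed at 0.442 FPKM or less. Ephb4 stood at 25.6, 22.9, 30.6 and 27.3 FPKM, Ephb2 at 23.0, 22.3, 23.3 and 17.3 FPKM, and Ephb3 at 16.2, 17.4, 12.2 and 20.6 FPKM. None of these was called in any of the 4 comparisons. Ephb6, an Eph receptor without kinase activity, was the only EphB member called, at 2.16, 1.76, 5.49 and 3.59 FPKM (1.04 for G3 Terc-/- against wild type), and it fell short of the rule with quantile normalization (0.89). Ephb1 was listed at 0 in the libraries with Terc and at 0.0231 FPKM or less in the others.

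EphA receptors differed in both directions between G3 Terc-/- and wild type, with 2 of 9 higher and 1 lower, beside 5.7% and 3.33% of all symbols. Those called had a mean of 1 FPKM or more, where 9.93% of symbols were higher and 6.25% lower, and the counts are small. Epha1, at home in epithelia, was at 1.85 FPKM (wild type), 2.35 (labelled Gadd45-/-), 18.4 (G3 Terc-/-) and 6.53 (labelled dKO) (2.77, a 9.94-fold difference of FPKM between G3 Terc-/- and wild type). Epha4, which binds ephrins of both subclasses, stood at 5.04, 5.45, 11.8 and 7.54 FPKM (1.08). Epha3, a receptor found on mesenchymal cells, stood at 14.8, 14.3, 2.22 and 7.30 FPKM (-2.29). The make-up of the EphA family differed accordingly, with Epha3 at 38.3% and Epha1 at 4.80% of the summed EphA FPKM in wild type, and 3.5% and 29.1% in G3 Terc-/-. Epha2 was the most abundant EphA receptor over the libraries, at 15.4, 18.2, 29.4 and 18.0 FPKM (0.89), and Epha7 stayed between 1.47 and 2.01 FPKM, while Epha5 and Epha8 stayed at 0.0946 FPKM or less.

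**Figure D3:**
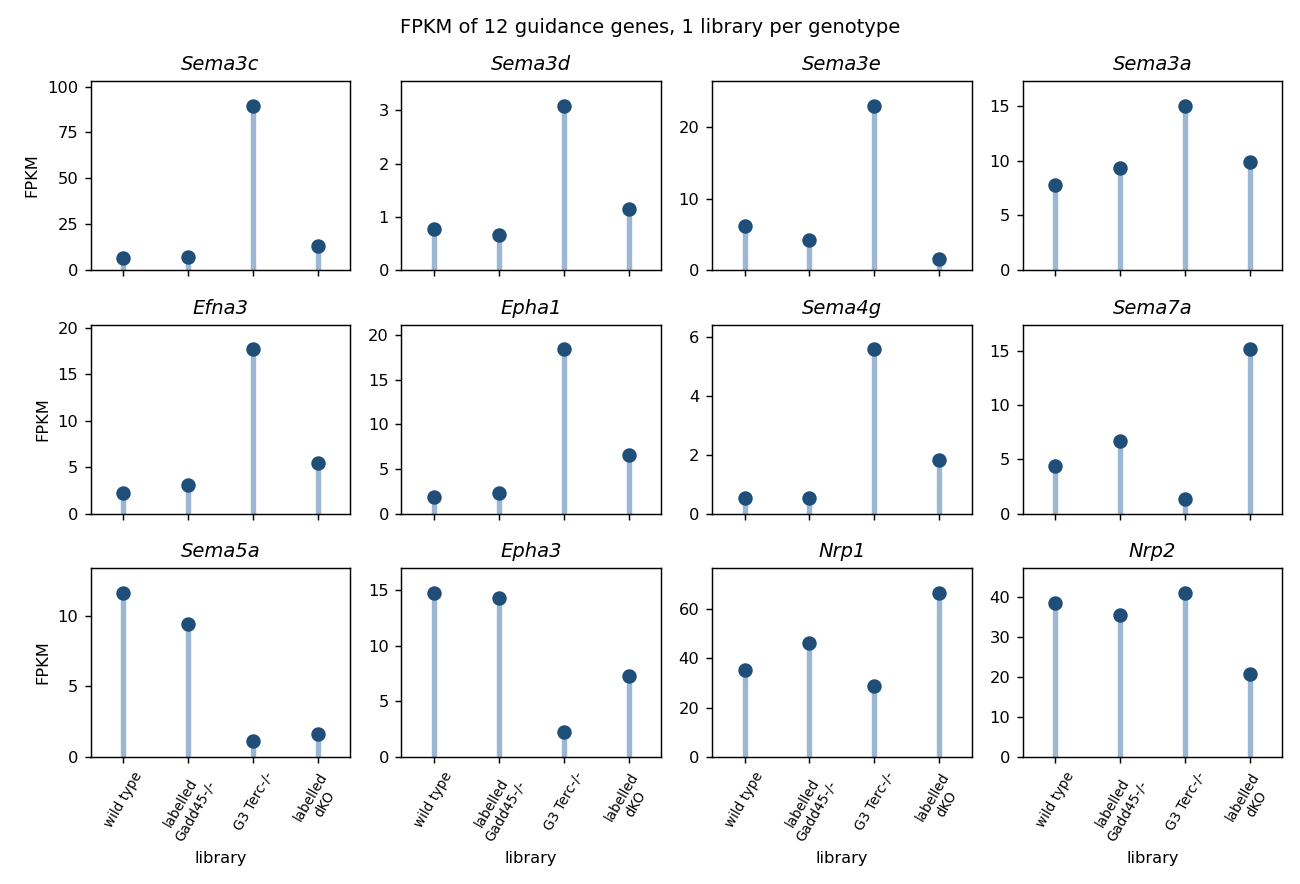
FPKM (y axis, linear from 0, own scale per panel) of 12 guidance genes in the 4 libraries (x axis), 1 point per library. Sema3c, Sema3d, Sema3e, Sema3a, Efna3, Epha1 and Sema4g peak in G3 Terc-/-, Sema7a and Nrp1 peak in the library labelled dKO, and Sema5a is low in both G3 libraries.

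The library labelled dKO was next set against G3 Terc-/-, which asks what the label Gadd45-/- goes with in G3 cells. Of the 53 genes 4 were higher (7.55% beside 0.849% of all symbols) and 6 lower (11.3% beside 2.79%). Among the 39 genes with a mean of 1 FPKM or more, 4 were higher (10.3% beside 1.51%) and 5 lower (12.8% beside 4.78%), with a median of -0.088 beside -0.031. This comparison shares the G3 Terc-/- library with the previous one, so a gene high in that library alone is called in both. Since Gadd45a RNA was more abundant under the label dKO, the directions belong to the labels.

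The 6 lower genes were Sema3e (1.54 against 23.0 FPKM, -3.24), Sema3c (13.2 against 89.6 FPKM, -2.67), Efna3 (5.40 against 17.7 FPKM, -1.54), Epha1 (6.53 against 18.4 FPKM, -1.37), Sema4g (1.81 against 5.59 FPKM, -1.23) and Sema6b (0.497 against 2.08 FPKM, -1.04, and -0.91 with quantile normalization, short of the rule). Of these Sema3e alone stood below its wild-type value of 6.24 FPKM in the library labelled dKO, and the other five stayed above theirs. The higher genes were Sema7a (15.1 against 1.32 FPKM, 2.80), Epha3 (7.30 against 2.22 FPKM, 1.37), Nrp1 (66.5 against 28.8 FPKM, 1.18) and Plxna4 (1.79 against 0.360 FPKM, 1.04). Sema7a and Nrp1 stood above all other libraries, while Epha3 and Plxna4 stayed below wild type.

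The neuropilins parted in the library labelled dKO. Nrp1, co-receptor of Sema3a and of the growth factor VEGF-A, had its highest value there, and Nrp2, co-receptor of Sema3f and VEGF-C, its lowest (20.8 against 41.0 FPKM, -0.94, under the size rule). The ratio of Nrp1 to Nrp2 was 0.918 in wild type, 1.30 in the library labelled Gadd45-/-, 0.702 in G3 Terc-/- and 3.19 in the library labelled dKO. Their summed FPKM was 73.4, 81.6, 69.7 and 87.3 in the same order. For Sema7a the receptor Plxnc1 remained low (0.359 FPKM), and Itgb1, the beta 1 integrin that Sema7a also binds, stood at 534, 539, 512 and 632 FPKM.

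The comparison of the library labelled dKO with the library labelled Gadd45-/- shares no library with that of G3 Terc-/- with wild type, so G3 Terc deficiency can be read in separate cultures, although the first of them crosses a sex difference. There 2 of 53 genes were higher (3.77% beside 1.33% of all symbols) and 2 lower (3.77% beside 1.3%). All 4 had a mean of 1 FPKM or more, where 2.49% of symbols were higher and 2.36% lower. Epha1 was higher (6.53 against 2.35 FPKM, 1.17) and Sema5a lower (1.64 against 9.44 FPKM, -1.98), as in G3 Terc-/- against wild type. Sema7a was higher (15.1 against 6.70 FPKM, 1.07) and Sema3e lower (1.54 against 4.23 FPKM, -1.04), opposite to that comparison. Of the 15 genes called in G3 Terc-/- against wild type, 13 had the same sign here, among them Sema3c (0.78), Sema4g (0.87), Sema6c (0.91), Efna3 (0.66), Epha3 (-0.88) and Plxnc1 (-0.97). Among those with a mean of 1 FPKM or more this was 11 of 13 (84.6%), beside 91.3% of the 1875 symbols called at that level, and 2 of 13 (15.4%) were called the same way in both, beside 22.0% of symbols. Across the 39 genes with a mean of 1 FPKM or more, Pearson's r between these comparisons was 0.61, beside 0.66 across all 11589 symbols at that level, as a description across genes of the same libraries.

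**Figure D4:**
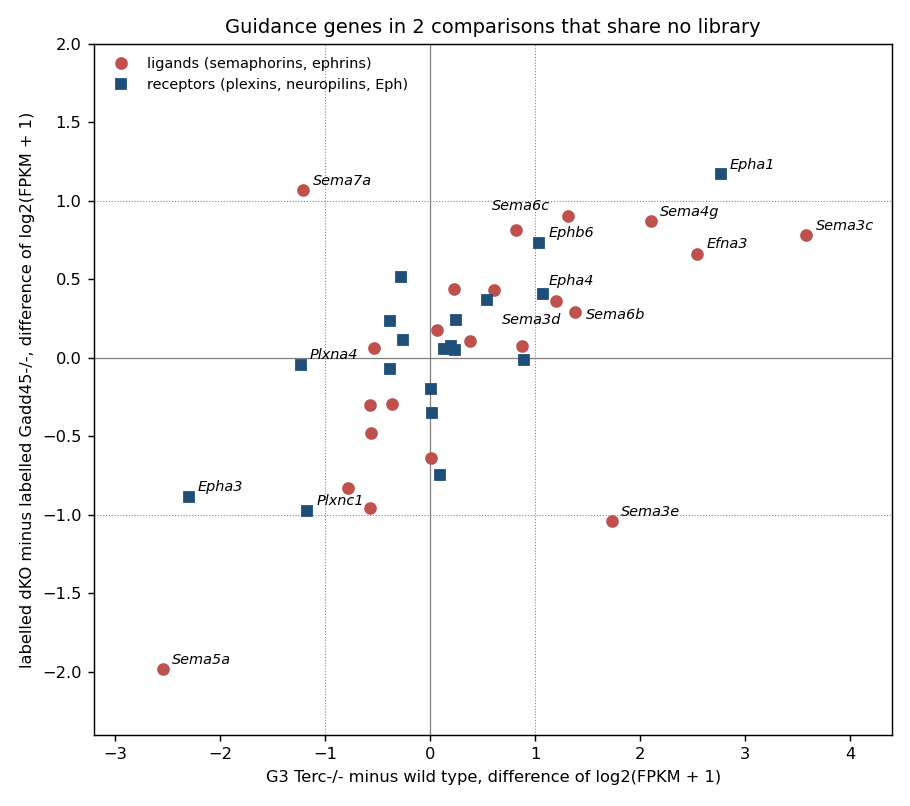
Difference of log2(FPKM + 1) between G3 Terc-/- and wild type (x axis) and between the libraries labelled dKO and Gadd45-/- (y axis) for the 41 guidance genes at 1 FPKM or more in any library, 1 point per gene, with dotted lines at 1 and -1. Epha1 and Sema5a lie past the rule the same way in both, Sema3e (1.73 and -1.04) and Sema7a (-1.21 and 1.07) in opposite corners.

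Partners of these receptors, from co-receptors and growth factors at the cell surface to GTPases and kinases inside the cell, were taken as a list of 62 genes. Of these 6 were higher in G3 Terc-/- than in wild type and none lower, beside 5.7% and 3.33% of all symbols. All 6 were among the 53 partners with a mean of 1 FPKM or more, and at that level 9.93% of symbols were higher and 6.25% lower. The median difference over these 53 partners was -0.0081. Rnd1, a small GTPase that binds plexins, stood at 1.77, 3.03, 13.4 and 3.71 FPKM in the library order used above (2.38 for G3 Terc-/- against wild type). Sipa1l1, a Rap regulator downstream of Epha4, stood at 17.2, 16.9, 52.7 and 16.0 FPKM (1.56), and Micall2, a relative of the MICAL enzymes, at 7.71, 10.0, 31.1 and 9.94 FPKM (1.88). All 3 had their highest value in G3 Terc-/- and were lower again in the library labelled dKO. Vegfa, the growth factor that binds Nrp1, was higher too (43.2, 46.7, 126 and 80.9 FPKM, 1.53), as were the kinases Pak1 (8.85, 11.2, 19.7 and 15.5 FPKM, 1.07) and Fes (1.48, 1.78, 4.32 and 6.64 FPKM, 1.10).

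In the library labelled dKO against G3 Terc-/-, 4 partners were lower and none higher, beside 2.79% and 0.849% of all symbols. All 4 had a mean of 1 FPKM or more, where 4.78% of symbols were lower and 1.51% higher. The 4 partners were Rnd1 (-1.61), Sipa1l1 (-1.66), Micall2 (-1.55) and Crmp1 (-1.27), a phosphoprotein of semaphorin signalling that stood at 9.58, 4.48, 15.4 and 5.83 FPKM. The most abundant partners were the actin-severing protein Cfl1, at 1212, 1214, 810 and 1092 FPKM, and Itgb1. Of the 62 partners only Fes was called between the libraries labelled dKO and Gadd45-/- (1.46), beside 1.33% of all symbols higher and 1.3% lower. Of 26 genes of other guidance families, 3 were higher and 1 lower in G3 Terc-/- than in wild type, beside 5.7% and 3.33% of all symbols. All of those called were among the 14 with a mean of 1 FPKM or more, where 9.93% of symbols were higher and 6.25% lower. The netrin Ntn1 (3.92, 3.54, 15.6 and 2.41 FPKM, 1.75) peaked there and Ntng2 (1.29) and Ntn4 (1.02) were higher, while the netrin receptor Unc5b was lower (109, 93.7, 41.2 and 53.3 FPKM, -1.39). Flrt2, a membrane protein that binds Unc5 receptors, was lowest in the library labelled dKO (56.0, 43.0, 43.0 and 15.6 FPKM). Of the same list 2 genes, Ntn1 (-2.28) and Flrt2 (-1.41), were lower in the library labelled dKO than in G3 Terc-/-, and none was higher. This stands beside 2.79% and 0.849% of all symbols, and 4.78% and 1.51% of those with a mean of 1 FPKM or more. Between the libraries labelled dKO and Gadd45-/- 2 were lower and none higher, beside 1.3% and 1.33% of all symbols, namely Flrt2 (-1.41) and its relative Flrt3 (5.27, 3.82, 2.25 and 0.915 FPKM, -1.33).

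Markers of other cell types were mostly low, with exceptions in each direction. Of 9 endothelial markers none reached 1 FPKM, with sums of 1.66, 1.48, 2.2 and 2.52 FPKM and Cldn5 listed at 0 throughout. The 7 epithelial markers summed to 9.25, 2.76, 2.17 and 2.07 FPKM. The keratins Krt18 (5.52, 2.09, 1.48 and 1.22 FPKM) and Krt8 (3.04, 0.531, 0.0633 and 0.626 FPKM) held most of it, and both were lower than in wild type in the library labelled Gadd45-/- (-1.08 and -1.40) and in G3 Terc-/- (-1.39 and -1.93). Cldn4 stood at 0.0318, 0.0311, 0.504 and 0.187 FPKM, and Epcam and Cdh1 at 0.109 FPKM or less. Macrophage and leukocyte markers summed to 2.65, 2.81, 3.11 and 5.80 FPKM over 7 genes, of which Tyrobp (0.283, 0.276, 0 and 1.52 FPKM) was called, higher in the library labelled dKO than in G3 Terc-/-. Of 6 Schwann and glial markers Sox10 (0.531, 0.379, 0 and 0.0200 FPKM) and Foxd3 (0.449, 0.300, 0 and 0.0462 FPKM) were not called in any comparison, while S100b (0.316, 0.343, 11.2 and 6.40 FPKM) was higher in both G3 libraries than in their counterparts (3.21 and 2.46) and held most of the G3 values of the sum of 2.16, 1.73, 11.4 and 6.94 FPKM. Of 9 neuronal markers Tubb3 held most of the sum of 41.3, 39.0, 32.0 and 78.4 FPKM, and it was higher in the library labelled dKO than in G3 Terc-/- (1.53) and than in the library labelled Gadd45-/- (1.06). Stmn2 (1.02, 1.18, 5.19 and 0.737 FPKM) was higher in G3 Terc-/- than in wild type (1.61) and lower in the library labelled dKO than in G3 Terc-/- (-1.83), while Mtap2 (1.34, 1.48, 0.0582 and 0.489 FPKM) was lower in G3 Terc-/- than in wild type (-1.15). The 5 skeletal muscle markers summed to 0.874 FPKM or less.

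The 8 fibroblast markers were abundant in each library, with sums of 11581, 12202, 6685 and 11522 FPKM. The sum was lowest in G3 Terc-/-, but single markers were not all lowest there. Against wild type 2 of 8 were called lower, Col1a1 (4270 and 1697 FPKM, -1.33) and Pdgfrb (141 and 61.8 FPKM, -1.18), and none higher. Fn1 (1417 and 1708 FPKM) and Pdgfra (33.2 and 37.1 FPKM) had higher values in G3 Terc-/-. Thy1 (476 FPKM) and Pdgfra (20.8 FPKM) were lowest in the library labelled dKO. Proliferation markers differed as well, with sums of 223, 211, 35.4 and 88.4 FPKM. All 6 were lower in G3 Terc-/- than in wild type, beside 6.25% of symbols with a mean of 1 FPKM or more. Their part, and that of the other marker lists, in the differences above was not tested.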

How the data were processed

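RNA-seq of 4 fibroblast cultures, 1 for each genotype, was analysed. The authors deposited FPKM values for each gene symbol. Per the submitters' processing notes the mm9 build, Cufflinks 2.2.1 and TopHat2 2.1.1 were used, with no role stated. How genes were annotated, and whether strand or a filter was used, is not given in the sources used here, and fragments shared by related or overlapping genes could be divided between them.

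Of 23235 symbols, 738 of short RNA were left out and 22497 compared. Differences of log2(FPKM + 1) were taken in 4 comparisons, a difference of 1 or more in size being called. The pseudocount of 1 FPKM shrinks differences of low genes. Replicates do not exist, so no test was run. The calling steps were run on simulated libraries with counting error only and known differences in genes that were not low. Variation between cultures was not simulated, so this checks the code and not how often single cultures differ.

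Depth was estimated from FPKM of 0.05 or less on transcripts of 1500 to 8000 nt (200 nt fragments). Between 76.2% and 79.1% of these values lay within 0.1 of a whole fragment, and the depth kept was the one that maximised this share. Fragment numbers cover counting error only and use genes with 1 RefSeq transcript in GENCODE M21.

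Genes named are those called in any comparison, the 2 most abundant of each family and of the partner list, and others to account for every member at 1 FPKM or more. Hgf, Cacna2d1, the genes of other guidance families, single marker genes and members named below the rule were chosen after their values were seen. The members and gene lists were chosen with earlier results of these data known. Alternatives were a pseudocount of 0.1 FPKM, a minimum mean of 1 FPKM, median-of-ratios and quantile scaling, and leaving out symbols listed at 0. Python 3.11.15, numpy 2.4.6, pandas 2.3.3 and matplotlib 3.10.9 were used.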

Additional observations from a re-analysis of the deposited data

Results flagged for a closer look

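Sema3e and Sema7a stand out because their difference between a G3 library and its Terc-proficient counterpart ran in opposite directions in the absence and in the presence of the label Gadd45-/-, each time past the size rule. For Sema3e it was 1.73 between G3 Terc-/- and wild type and -1.04 between the libraries labelled dKO and Gadd45-/-. For Sema7a it was -1.21 and 1.07. Each value rests on 1 library per genotype, so the difference between the 2 backgrounds was not tested. The libraries labelled dKO and Gadd45-/- also differed in sex, so sex and genotype cannot be told apart in that comparison. Among the 1875 symbols with a mean of 1 FPKM or more that were called between G3 Terc-/- and wild type, 7 were called in the opposite direction in the other comparison, and Sema3e and Sema7a are 2 of them. The other five, chosen after their values were seen, were the growth cone gene Gap43 (15.0, 10.3, 40.5 and 3.15 FPKM in wild type, the library labelled Gadd45-/-, G3 Terc-/- and the library labelled dKO), the transcription factor genes Twist2 (170, 153, 357 and 56.1 FPKM) and Hoxd11 (1.65, 4.22, 5.28 and 0.807 FPKM), Smoc2 (27.2, 21.5, 7.62 and 45.2 FPKM) and H2-Q4 (3.61, 4.79, 65.4 and 1.48 FPKM), whose value is uncertain because near-identical genes share its fragments.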

How the results depend on the processing

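No paired analysis was possible because each genotype has 1 library and the labels give no replicate numbers. With a pseudocount of 0.1 FPKM, 8 in place of 5 guidance genes were lower in G3 Terc-/- than in wild type (beside 6.40% of all symbols), and between the libraries labelled dKO and Gadd45-/- 4 in place of 2 were higher (beside 5.52%) and 7 in place of 2 lower (beside 3.52%). The shares of all symbols were thus larger as well. Over all members above 0 in any library the median difference between G3 Terc-/- and wild type was 0.0202 in place of 0.129. The other 52 recomputed counts and medians stayed within 1.5-fold or 0.1, but the shares of all symbols beside them could move more. At a pseudocount of 0.1 FPKM, 11 in place of 10 guidance genes were higher in G3 Terc-/- than in wild type. The share of all symbols was 12.02% in place of 5.7%. Between the library labelled dKO and G3 Terc-/-, 7 in place of 6 were lower (beside 7.22% in place of 2.79%). There 6 in place of 4 were higher (beside 3.25% in place of 0.849%). How far these counts exceed all symbols thus depends on the pseudocount. Of 29 gene differences past the rule none changed sign. With quantile normalization 3 fell short of it, namely Ephb6 (0.892) and Sema3d (0.978) between G3 Terc-/- and wild type and Sema6b (-0.909) between the library labelled dKO and G3 Terc-/-. Plxnc1 in G3 Terc-/- rests on about 11.2 fragments and Plxnb3 in the G3 libraries on about 1, so these levels are limited by depth.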
